A study of Homo sapiens with 24 samples.

Results

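HepaRG cells given FZD8_CRD were compared with HepaRG cells transfected with a control siRNA, with no Wnt3a in either group. The arrays were chosen by sample title, which gave 3 arrays for each group and 6 of the 24 samples in the series. The series measured RNA on Agilent Cy3 arrays in 8 conditions, which cross Wnt3a or no Wnt3a with 4 states: untreated, control siRNA, CTNNB1 siRNA and FZD8_CRD. Each condition had 3 independent culture experiments. Against untreated cells, both groups had lower levels of hepatocyte genes, and the comparison asks what separates them. The FZD8_CRD group was not transfected and received 300 ng/ml of recombinant mouse FZD8_CRD. The control siRNA group was detached, electroporated in suspension with 80 pmol of a control siRNA and given neither FZD8_CRD nor Wnt3a. The treatment period was 72 hours, in serum-free medium. Electroporation, siRNA and FZD8_CRD thus differ between the groups together, as may detachment, which the sample notes give for transfected cells alone, and their parts cannot be told apart. HepaRG is 1 line, labelled as hepatocellular carcinoma and known as a bipotent liver progenitor, so values describe that line only. Arrays with the same replicate number shared a slide and a scan. The place on the slide was the same for every array of a group (row 1, column 4 for FZD8_CRD and row 1, column 2 for control siRNA), so place and group cannot be told apart either.

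Wnt proteins are secreted ligands that bind Frizzled receptors through the cysteine-rich domain outside the cell. A soluble form of that domain from FZD8, called FZD8_CRD, binds Wnt proteins in the medium and keeps them from the receptors. When the receptors are engaged, CTNNB1 (β-catenin) is spared from breakdown and drives target genes such as AXIN2 and RNF43, which in turn dampen the pathway. In liver, the same pathway helps set which hepatocytes make which metabolic enzymes, and hepatocytes are known for secreting most plasma proteins.

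Levels are log2 background-subtracted intensities divided by the 75th percentile within the array, so a level of 0 is that percentile and the lowest level used was -6.13. On the 6 arrays, between 59.5 and 62.2% of spots stood well above background. The number of arrays limits the precision, with a median standard error (SE) of 0.163 for a log2 difference. Markers of hepatocytes (ALB, TTR, SERPINA1, APOA1 and HNF4A) were above background on all 6 arrays. The biliary and progenitor markers KRT7, KRT19, SOX9 and CD24 were also above background on all 6, whereas EPCAM was on 0 of the 6. Of the mesenchymal markers, VIM, COL1A1, FN1 and CDH2 were above background on all 6 arrays and COL1A2 was on 4. FZD8_CRD replicate 3 stood apart from its group. Its median distance from the other arrays of the group was 0.251 on the log2 scale, with 1239 genes more than 1 log2 unit away. Replicates 1 and 2 lay at 0.170 and 0.171, with 616 and 540 such genes. Results that rest on replicate 3 are given with and without it.

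Of 24648 genes tested with limma, 3837 (15.6%) were called, meaning a two-sided adjusted p under 0.05. With FZD8_CRD, 1757 genes (7.13%) were higher and 2080 (8.44%) were lower than with control siRNA. The median difference over all genes was -0.04. Among called genes the median size of the difference was 0.494, and 424 differed by more than 2-fold, of which 86 were higher and 338 lower. The plot of differences against mean level shows the larger falls reaching further from 0 than the larger rises. Falls were thus more often large than rises were. Leaving out 1 array changed the counts. Control siRNA replicate 1 left 917 higher and 1183 lower, and control siRNA replicate 2 left 1066 and 1292. FZD8_CRD replicate 2 left 942 higher and 1596 lower. Without FZD8_CRD replicate 3 there were 2043 higher and 1796 lower. With the replicate number as a block, 2814 genes were higher and 3277 lower, and these held all 1757 and 2080. Scaled to 7 spike-in probes, the median over all genes moved to -0.14. Their mean level was 0.11 higher with FZD8_CRD, but that ranged from -0.13 without FZD8_CRD replicate 3 to 0.29 without FZD8_CRD replicate 1, and was 0.23 without control siRNA replicate 3 and -0.04 without control siRNA replicate 2. That scaling called 20 genes higher and 235 lower, a fit of the 6 arrays alone called 767 and 981, and array weights called 4057 and 4323, so the number of calls depends on the scaling and the fit, and differences are read relative to the 75th percentile.

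**Figure D1:**
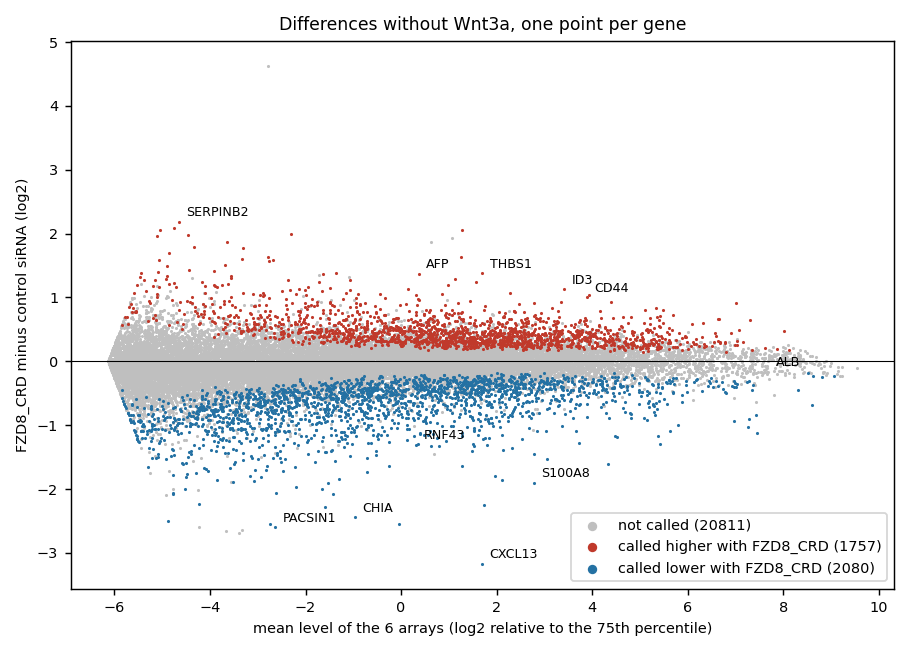
Difference in log2 level (FZD8_CRD minus control siRNA, no Wnt3a) of each gene tested against its mean log2 level over the 6 arrays, with genes called higher and lower in colour and the named genes labelled. Of 24648 genes, 1757 were called higher and 2080 lower.

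The largest fall was that of CXCL13, a chemokine that attracts B cells. Its log2 levels were 0.67, 0.01 and -0.33 with FZD8_CRD and 3.33, 3.33 and 3.20 with control siRNA. Every FZD8_CRD array lay far below every control siRNA array, and the control arrays lay close to one another. CXCL13 fell by 3.17 on the log2 scale (SE 0.27, adjusted p = 8.45e-07). Untreated cells read 4.05, 3.83 and 3.54, so the control siRNA arrays lay nearer to untreated cells than the FZD8_CRD arrays did. PACSIN1, which bends membranes during endocytosis, read -3.76, -4.41 and -3.62 against -1.28, -1.19 and -1.52 and fell by 2.60 (SE 0.28, adjusted p = 8.02e-06). PI15, a secreted trypsin inhibitor, was at the lowest level on all 3 FZD8_CRD arrays and read -3.65, -3.24 and -3.97 with control siRNA. At the lowest level used, that is at least 5.66-fold lower (adjusted p = 9.7e-05), but the log2 difference was -0.87 with normexp background correction. The size of the PI15 fall thus depends on the lowest level and on background correction. CHIA, a chitinase, read -1.57, -2.19 and -2.82 against 0.25, 0.19 and 0.32, with no overlap, and fell by 2.44 (adjusted p = 0.000125). S100A8, a calcium-binding protein of inflammation, read 2.33, 1.83 and 1.35 against 3.77, 3.89 and 3.56 and fell by 1.90 (adjusted p = 1.28e-05). FZD8_CRD arrays differed more among themselves than control siRNA arrays did for both of these genes. DNAI1, a dynein chain of motile cilia, and ATP2B2, a calcium pump of the cell membrane, were above background on only 1 of 3 FZD8_CRD arrays, so the sizes of their falls (2.07 and 2.07) are uncertain. A second DNAI1 probe differed by -0.82. Over the alternatives run the differences ranged from -2.23 to -0.67 and from -2.42 to -0.60, and both stayed called. Of the others among the 15 largest falls, NAT8 (an acetyltransferase) fell by 2.00, NTN5 (a netrin) by 1.90, RNASE2 (a ribonuclease) by 1.89 and SLC23A1 (a vitamin C transporter) by 2.00. With normexp, RNASE2 fell less (-0.92), and SLC23A1 (-0.69, adjusted p = 0.102) was not called. All the genes named so far kept their call with any 1 array left out.

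LINC02245, a non-coding RNA that met the rule for the largest falls, rested on 1 array. Its levels were 2.11, -3.35 and -3.18 with control siRNA and -4.14, -4.33 and -3.59 with FZD8_CRD, so only control siRNA replicate 1 was high. The call (difference -2.55, adjusted p = 0.0477) ended without control siRNA replicate 1 (-0.76, adjusted p = 0.141), FZD8_CRD replicate 1 (-2.49, adjusted p = 0.101), FZD8_CRD replicate 2 (-2.39, adjusted p = 0.131) or FZD8_CRD replicate 3 (-2.76, adjusted p = 0.0614). SULT2A1 and ADH4, liver enzymes among the largest falls, also lost their calls with 1 array left out. SULT2A1, which sulfates steroids and bile acids, read -1.73, -3.20 and -3.25 against -0.42, -0.59 and -0.34. FZD8_CRD replicate 1 lay closest to the control arrays, without overlap. The difference was -2.28 (SE 0.61, adjusted p = 0.0156), and the call ended without control siRNA replicate 1 (-2.26, adjusted p = 0.0514), FZD8_CRD replicate 2 (-2.04, adjusted p = 0.0662) or FZD8_CRD replicate 3 (-2.02, adjusted p = 0.0539). ADH4, an alcohol dehydrogenase, differed by -2.24 (adjusted p = 0.0238; -0.91 with normexp, adjusted p = 0.208), and its call ended without control siRNA replicate 1 (-2.24, adjusted p = 0.0694), control siRNA replicate 2 (-2.26, adjusted p = 0.0624), control siRNA replicate 3 (-2.22, adjusted p = 0.059) or FZD8_CRD replicate 2 (-1.85, adjusted p = 0.111).

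Among the rises, SERPINB2, an inhibitor of plasminogen activators, had the largest difference in the main fit. Its levels were -4.13, -3.57 and -2.98 with FZD8_CRD and -5.37, -6.13 and -5.75 with control siRNA. All FZD8_CRD arrays were above all control siRNA arrays, of which 1 was at the lowest level. SERPINB2 rose by 2.19 (SE 0.29, adjusted p = 6.72e-05). DEFB103B, an antimicrobial defensin, read -2.12, -2.37 and -1.42 against -3.68, -3.76 and -3.35 and rose by 1.63 (adjusted p = 0.000113). MN1, a transcriptional coregulator, read -3.42, -3.09 and -3.14 against -4.56, -4.73 and -4.59 and rose by 1.41 (adjusted p = 0.000215). The groups did not overlap for either gene. OR2T8, an olfactory receptor, rose by 1.99 (other probe 0.29), BDKRB1, a bradykinin receptor, by 1.43, and LAYN, a hyaluronan receptor, by 1.41. DCLK2, a microtubule-associated kinase, rose by 1.70. LRRC3, a leucine-rich repeat protein, rose by 1.60 on the probe used, while its other probe differed by -0.04. Each of these genes kept its call with any 1 array left out. Sizes near the lowest level are uncertain: with normexp the differences were 0.80 for SERPINB2, 0.97 for DEFB103B, 0.66 for MN1, 0.69 for OR2T8, 0.54 for BDKRB1, 0.34 for LAYN, 0.54 for DCLK2 and 0.87 for LRRC3, all still called. Spike-in scaling ended the call of BDKRB1 (1.32, adjusted p = 0.0555), and leaving out replicate number 2 ended those of LAYN and DCLK2. A floor of 1 intensity unit ended that of OR2T8 (1.99, adjusted p = 0.0502). The plot of levels on all 24 arrays shows CXCL13, SERPINB2 and S100A8 beside genes of other groups.

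**Figure D2:**
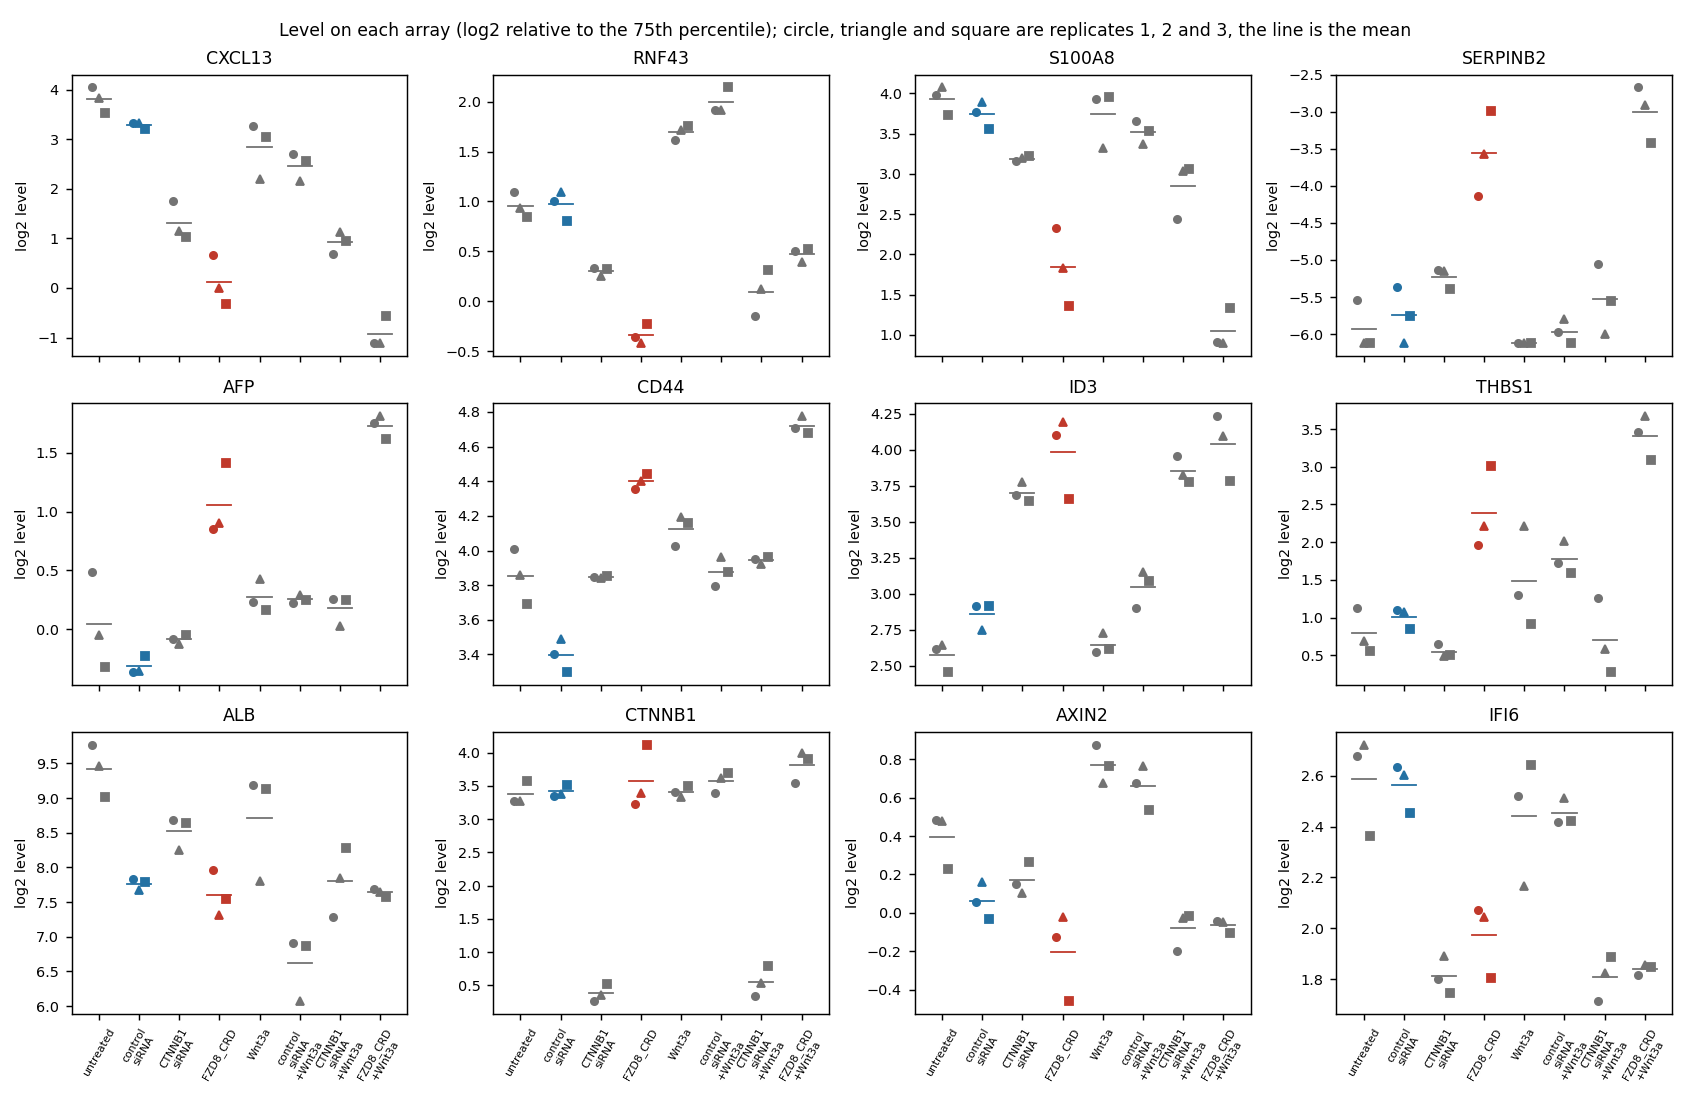
Log2 level relative to the 75th percentile for 12 genes on all 24 arrays, each point an array and each line the mean of 3. CXCL13 lies lower and SERPINB2 higher on all 3 FZD8_CRD arrays than on the 3 control siRNA arrays.

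A second set of rises leaned on FZD8_CRD replicate 3. FOXS1, a forkhead transcription factor, read -4.94, -5.68 and -1.47 with FZD8_CRD and -6.13, -5.99 and -6.13 with control siRNA. Replicate 3 stood far above the other FZD8_CRD arrays, which were near the lowest level. At the lowest level used, FOXS1 was at least 4.0-fold higher (adjusted p = 0.0302; log2 difference 0.80 with normexp), and the call ended without control siRNA replicate 1 (2.03, adjusted p = 0.0847), control siRNA replicate 2 (2.10, adjusted p = 0.0702), control siRNA replicate 3 (2.03, adjusted p = 0.0705) or FZD8_CRD replicate 3 (0.77, adjusted p = 0.054). The size of the FOXS1 rise thus also depends on the lowest level and on background correction. SGCA, a muscle membrane protein, read -2.60, -2.74 and 1.43 against -3.33, -2.97 and -3.62, again with replicate 3 far above the rest. Its difference of 2.00 (adjusted p = 0.0417) lost its call without control siRNA replicate 1 (1.99, adjusted p = 0.106), control siRNA replicate 2 (2.17, adjusted p = 0.0707), control siRNA replicate 3 (1.84, adjusted p = 0.117) or FZD8_CRD replicate 3 (0.63, adjusted p = 0.0645). IL11, a cytokine of the IL6 family, differed by 1.57 (adjusted p = 0.0152; 1.03 with normexp), with the call ending without control siRNA replicate 1 (1.52, adjusted p = 0.0555) or FZD8_CRD replicate 3 (1.00, adjusted p = 0.083). ITGB6, an integrin chain that activates TGF-beta, differed by 1.5 (adjusted p = 0.0235; 0.49 with normexp). That call ended without control siRNA replicate 1 (1.49, adjusted p = 0.07), control siRNA replicate 3 (1.26, adjusted p = 0.0961) or FZD8_CRD replicate 3 (0.84, adjusted p = 0.127).

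For the hepatocyte genes that make plasma proteins, calls and medians depended on which FZD8_CRD arrays were kept. In bulk RNA, fewer hepatocyte-like cells and less RNA per cell cannot be told apart. ALB, which encodes albumin, read 7.96, 7.32 and 7.55 with FZD8_CRD and 7.83, 7.67 and 7.79 with control siRNA. The ranges overlapped, with a difference of -0.16 (SE 0.31, 95% interval -0.81 to 0.49, adjusted p = 0.812). Untreated cells read 9.77, 9.46 and 9.01, above both groups. Of 14 plasma carriers, 1 was called higher and 1 lower (7.13% and 8.44% of all genes were; 3 lower without FZD8_CRD replicate 3; 2 lower with replicate blocks), with a median difference of -0.30 (0.08 without FZD8_CRD replicate 2; -1.10 without FZD8_CRD replicate 3). With array weights, 7 were called lower and the median was -0.96. AFP, the fetal counterpart of albumin, was the gene called higher. AFP read 0.85, 0.91 and 1.42 against -0.36, -0.35 and -0.23, and every FZD8_CRD array was above every control siRNA array. It rose by 1.37 (SE 0.15, adjusted p = 1.32e-05). A1BG, a plasma glycoprotein, was the carrier called lower, at -2.98, -3.06 and -3.37 against -1.69, -1.95 and -1.82. It fell by 1.32 (SE 0.16, adjusted p = 3.08e-05). Both AFP and A1BG kept their call with any 1 array left out.

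Apolipoproteins had 1 of 11 called, lower (8.44% of all genes were; 4 lower without FZD8_CRD replicate 3; 2 lower with replicate blocks), with a median of -0.57 (-0.37 without FZD8_CRD replicate 2), and array weights called 7 lower. APOC1, a lipoprotein protein that slows lipid clearance, was that gene. It read 3.14, 2.94 and 3.24 against 4.16, 4.23 and 4.23 and fell by 1.10 (adjusted p = 0.00602). Acute-phase proteins had 1 of 16 called lower (0 with spike-in scaling and 2 with array weights) and a median of -0.36 (-0.23 without FZD8_CRD replicate 2; -0.20 without FZD8_CRD replicate 3), and coagulation and complement had 1 of 29 called lower (0 with spike-in scaling, 4 in the 6-array fit and 8 with array weights) and a median of -0.26 (-0.11 without FZD8_CRD replicate 2; -0.10 with normexp). ITIH4, an inhibitor of matrix breakdown made in liver, differed by -1.28 (adjusted p = 0.0266), and its call ended without control siRNA replicate 1 (-1.24, adjusted p = 0.0839), control siRNA replicate 2 (-1.25, adjusted p = 0.0757), FZD8_CRD replicate 1 (-1.28, adjusted p = 0.0571) or FZD8_CRD replicate 2 (-1.0, adjusted p = 0.131). F10, a clotting factor, differed by -0.82 (adjusted p = 0.0315), and its call ended without control siRNA replicate 1 (-0.78, adjusted p = 0.102), control siRNA replicate 2 (-0.83, adjusted p = 0.0766), control siRNA replicate 3 (-0.86, adjusted p = 0.0582), FZD8_CRD replicate 2 (-0.81, adjusted p = 0.0813) or FZD8_CRD replicate 3 (-0.72, adjusted p = 0.095).

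Both groups were also set beside untreated cells. These comparisons share the untreated arrays, so only their own values are given. FZD8_CRD versus untreated had 10316 called genes (41.9%), with 4888 higher (19.8%) and 5428 lower (22%), or 553 and 6828 with spike-in scaling. Control siRNA versus untreated had 5527 (22.4%), with 3061 higher (12.4%) and 2466 lower (10%), or 123 and 1518 with spike-in scaling, and 3351 were called without untreated replicate 1. The balance of higher and lower thus depends on the scaling. For plasma carriers the median difference from untreated was -1.78 with FZD8_CRD and -1.71 with control siRNA. The medians were -1.90 and -1.56 for acute-phase proteins, and -1.85 and -1.61 for coagulation and complement. Apolipoproteins stood at -1.98 with FZD8_CRD and -1.17 with control siRNA. All of these medians lay below 0 in both groups. Genes called higher with FZD8_CRD than control siRNA had medians of 0.55 (FZD8_CRD minus untreated) and 0.13 (control siRNA minus untreated). Genes called lower had medians of -0.65 and -0.07. Both sets were chosen by the difference between FZD8_CRD and control siRNA on these arrays. A gap between the medians of a set thus follows from that choice, and nothing is concluded from it. The plot of list medians against untreated cells shows the lists by both differences.

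**Figure D3:**
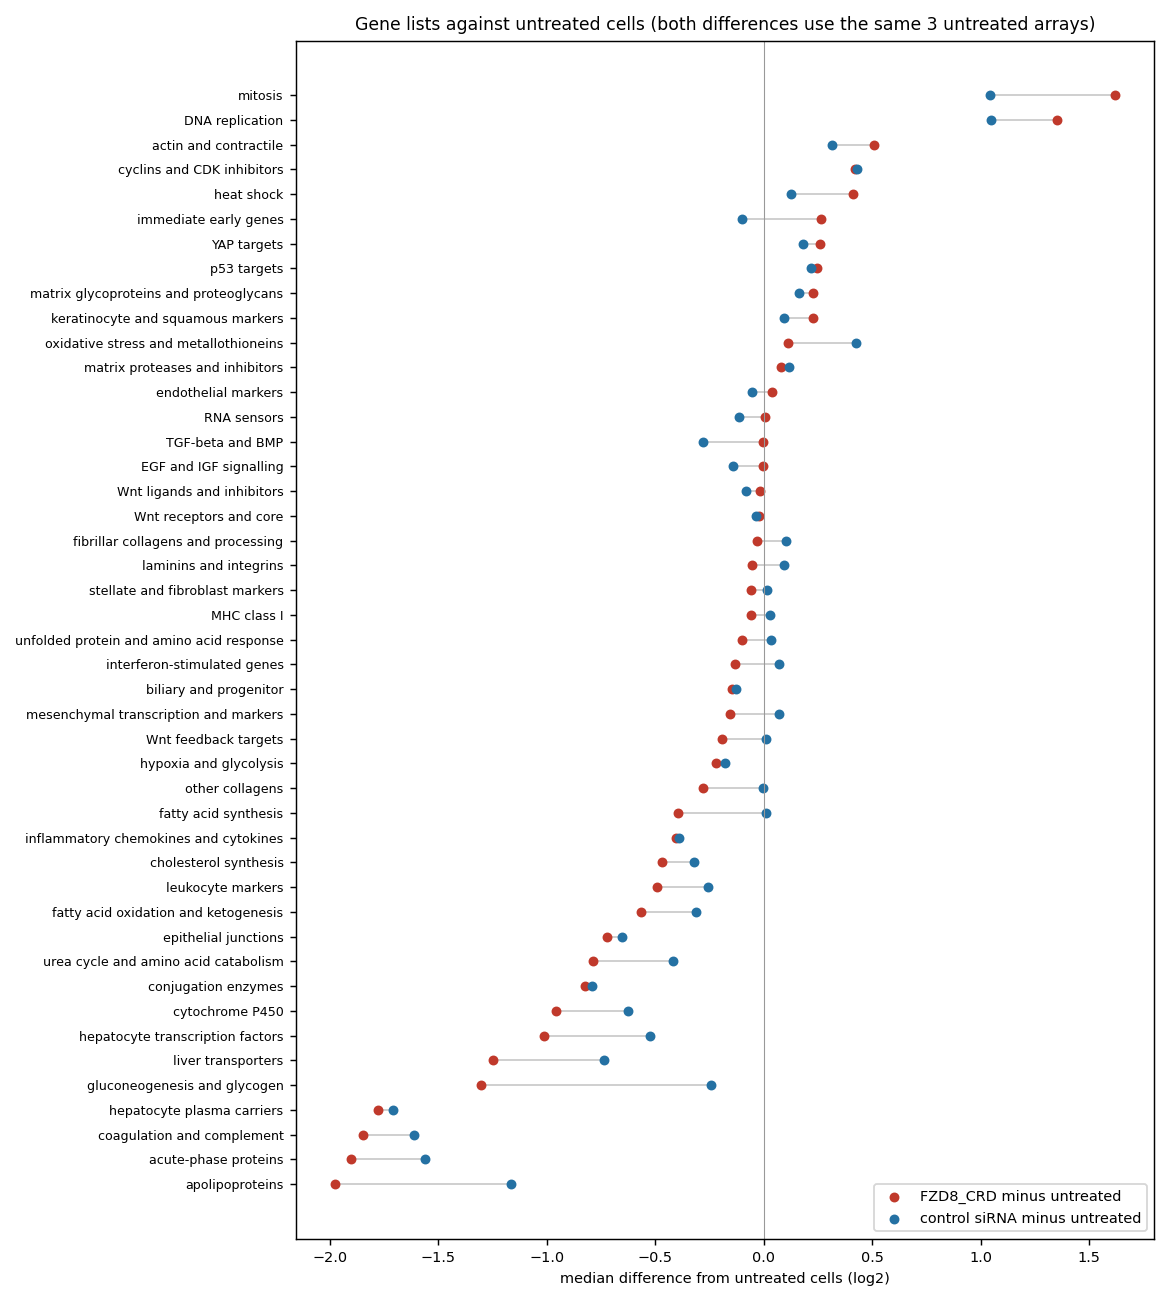
Median log2 difference from untreated cells of each of 45 gene lists, FZD8_CRD minus untreated against control siRNA minus untreated, which share the untreated arrays. Mitosis lies at 1.62 and 1.04, and plasma carriers at -1.78 and -1.71.

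Of 21 hepatocyte transcription factors, 5 were called lower and 1 higher, against 8.44% and 7.13% of all genes, with a median of -0.33. The number called lower was 2 without control siRNA replicate 1, 2 without control siRNA replicate 2, 3 without FZD8_CRD replicate 2 and 3 without FZD8_CRD replicate 3; it was 1 with spike-in scaling, 2 in the 6-array fit and 11 with array weights. PPARA, the fatty acid sensor of liver, read 0.21, 0.09 and -0.49 against 0.69, 0.53 and 0.55 and fell by 0.65 (adjusted p = 0.00603) on the probe used. The other PPARA probe differed by 0.19. PPARA was not called with the mean of its probes (-0.23, adjusted p = 0.147) or in the 6-array fit (adjusted p = 0.0926). ONECUT1, a factor of hepatocyte development, differed by -1.52 (adjusted p = 0.022; -1.0 with normexp), and the call ended without control siRNA replicate 1 (-1.51, adjusted p = 0.0672), control siRNA replicate 2 (-1.56, adjusted p = 0.054), control siRNA replicate 3 (-1.49, adjusted p = 0.0581), FZD8_CRD replicate 2 (-1.34, adjusted p = 0.0879) or FZD8_CRD replicate 3 (-1.45, adjusted p = 0.0557). FOXA3, a pioneer factor, was the gene called higher (0.62, adjusted p = 0.0227), and its call ended without control siRNA replicate 2 (0.60, adjusted p = 0.0685), control siRNA replicate 3 (0.55, adjusted p = 0.0812), FZD8_CRD replicate 1 (0.61, adjusted p = 0.0525) or FZD8_CRD replicate 2 (0.62, adjusted p = 0.0587).

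Cytochrome P450 enzymes oxidise drugs, steroids and fatty acids. Of 29 tested, 9 were called lower and 0 higher, against 8.44% of all genes called lower, and the median was -0.30 (-0.52 with the deposited values; -0.57 with a floor of 1 intensity unit). The lower count was 5 without control siRNA replicate 3 and 4 without FZD8_CRD replicate 2; it was 1 with spike-in scaling. CYP4F12, which hydroxylates fatty acids, read 0.53, 0.53 and 0.53 against 1.15, 1.06 and 1.16. The FZD8_CRD arrays were alike and all lower, and CYP4F12 fell by 0.60 (SE 0.10, adjusted p = 0.000402). CYP27A1, an enzyme of bile acid synthesis, read 4.63, 4.54 and 3.72 against 5.09, 5.11 and 5.06, with FZD8_CRD replicate 3 the lowest. It fell by 0.79 (adjusted p = 0.00392), and the difference was -0.50 without that array (adjusted p = 0.0109). CYP2D6, which clears many drugs, fell by 0.63 (adjusted p = 0.00706; not called with the mean of its probes, -0.51, adjusted p = 0.301), and CYP4F3, which breaks down leukotriene B4, fell by 0.77 (adjusted p = 0.00677). Conjugation enzymes had 2 of 23 called lower. Of these, SULT1A2, a phenol sulfotransferase, differed by -0.34 (adjusted p = 0.0247), and the call ended without control siRNA replicate 1 (-0.36, adjusted p = 0.0571), control siRNA replicate 2 (-0.35, adjusted p = 0.0566), control siRNA replicate 3 (-0.31, adjusted p = 0.0828), FZD8_CRD replicate 1 (-0.31, adjusted p = 0.0745) or FZD8_CRD replicate 2 (-0.29, adjusted p = 0.105). SULT2A1 was the other.

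Liver transporters had 1 of 20 called higher and 6 lower, against 7.13% and 8.44% of all genes, with a median of -0.27 (-0.42 without FZD8_CRD replicate 1). The lower count was 3 without control siRNA replicate 2; it was 2 with spike-in scaling. SLC2A2, the glucose transporter of hepatocytes, read -2.83, -2.82 and -2.98 against -1.65, -1.43 and -1.73. Every FZD8_CRD array was lower by more than the spread of either group, and SLC2A2 fell by 1.28 (SE 0.24, adjusted p = 0.00138). SLC51B, a subunit of a bile acid exporter, fell by 1.34 (adjusted p = 0.00225; -0.64 with normexp), and ABCC2, which pumps conjugates into bile, fell by 0.31 (adjusted p = 0.00547). ATP8B1, a lipid flippase of the bile canaliculus, was the gene called higher. It read 0.68, 0.83 and 0.57 against 0.09, 0.09 and 0.19 and rose by 0.57 (adjusted p = 0.000537).

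Urea cycle and amino acid genes had 3 of 22 called, all lower (0 with spike-in scaling, 5 in the 6-array fit and 9 with array weights), against 8.44% of all genes, with a median of -0.23. GLUL, which makes glutamine from ammonia and is a known Wnt-dependent gene of pericentral hepatocytes, read 4.17, 4.03 and 3.51 against 4.76, 4.83 and 4.76. The groups did not overlap, and GLUL fell by 0.88 (SE 0.12, adjusted p = 9.61e-05). HGD, of tyrosine breakdown, fell by 0.64 (adjusted p = 0.00213), and CTH, which makes cysteine, fell by 0.45 (adjusted p = 0.00388). Gluconeogenesis and glycogen genes had 2 of 11 called, both lower (1 with spike-in scaling, 5 in the 6-array fit and 6 with array weights), with a median of -0.44 (-0.21 with normexp). PPARGC1A, a coactivator of gluconeogenesis, read 1.11, 1.14 and 0.14 against 2.18, 2.21 and 2.19, with FZD8_CRD replicate 3 the lowest. It fell by 1.40 (SE 0.23, adjusted p = 0.000546) and kept its call with any 1 array left out. SLC37A4, which carries glucose 6-phosphate, differed by -0.44 (adjusted p = 0.0209), and its call ended without control siRNA replicate 1 (-0.41, adjusted p = 0.0815), control siRNA replicate 2 (-0.43, adjusted p = 0.0618) or FZD8_CRD replicate 2 (-0.40, adjusted p = 0.0808).

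In lipid metabolism, fatty acid synthesis had 6 of 14 genes called lower and 0 higher, against 8.44% and 7.13% of all genes, with a median of -0.23. The lower count was 3 without control siRNA replicate 1; it was 2 with spike-in scaling and 3 in the 6-array fit. MLXIPL, a glucose-responsive activator of that pathway, read 2.74, 2.54 and 1.59 against 3.86, 3.92 and 3.69. FZD8_CRD arrays were all lower, replicate 3 the most, and MLXIPL fell by 1.53 (SE 0.29, adjusted p = 0.00161). ACACB, the acetyl-CoA carboxylase of mitochondria, fell by 1.13 (adjusted p = 0.000905), and SREBF1, a master activator of lipid synthesis, fell by 0.72 (adjusted p = 0.000989; other probe -0.24). FASN, the fatty acid synthase, differed by -0.68 (adjusted p = 0.0177), and its call ended without control siRNA replicate 1 (-0.64, adjusted p = 0.0712), control siRNA replicate 2 (-0.62, adjusted p = 0.0728) or FZD8_CRD replicate 3 (-0.34, adjusted p = 0.0643). Cholesterol synthesis had 5 of 24 called lower and 0 higher, with a median of -0.19 (-0.04 without FZD8_CRD replicate 3), and the count was 1 without control siRNA replicate 1, 1 without control siRNA replicate 2 and 1 without FZD8_CRD replicate 3; it was 0 with spike-in scaling and 0 in the 6-array fit. INSIG1, which restrains that pathway, read 3.31, 3.27 and 2.49 against 3.85, 3.98 and 3.69 and fell by 0.82 (adjusted p = 0.00425). Fatty acid oxidation and ketogenesis had 5 of 25 called lower and 1 higher (0 higher without control siRNA replicate 1, 2 or 3 or FZD8_CRD replicate 1 or 2), with a median of -0.21 (-0.11 without FZD8_CRD replicate 3). The lower count was 3 without FZD8_CRD replicate 3; it was 1 with spike-in scaling and 10 with array weights. ACSM5, which activates medium-chain fatty acids, fell by 1.10 (adjusted p = 0.00215; other probe -0.69), and CPT1A, which takes fatty acids into mitochondria, fell by 0.44 (adjusted p = 0.00363). ACSL1, which activates long-chain fatty acids, fell by 1.17 (adjusted p = 0.00161), and its difference was -0.78 without FZD8_CRD replicate 3 (adjusted p = 0.00262).

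Among Wnt pathway genes, RNF43 stood out. It encodes a ubiquitin ligase that removes Frizzled receptors and is itself a Wnt target. Its levels were -0.36, -0.42 and -0.23 with FZD8_CRD and 1.00, 1.10 and 0.81 with control siRNA. The groups lay far apart and each was tight. RNF43 fell by 1.31 (SE 0.10, adjusted p = 4.93e-07) and kept its call with any 1 array left out. Untreated cells read 1.09, 0.94 and 0.85, within the range of control siRNA, and CTNNB1 siRNA arrays read 0.33, 0.25 and 0.33. AXIN2, a scaffold of the CTNNB1 destruction complex and a widely used Wnt target, read -0.12, -0.02 and -0.46 against 0.06, 0.16 and -0.03. The FZD8_CRD arrays were the lower ones except that replicate 2 met control siRNA replicate 3, and the difference of -0.26 (SE 0.10, adjusted p = 0.0951) was not called. Its other probe differed by -0.48. AXIN2 was called with the mean of its probes (-0.37, adjusted p = 0.0189) and without FZD8_CRD replicate 2 (-0.35, adjusted p = 0.0467). ZNRF3, the partner of RNF43, differed by 0.01 (adjusted p = 0.983), and its probes had differences of opposite sign. NKD1, an inhibitor of Dishevelled, was at the lowest level on all 6 arrays, so no difference could be measured.

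CTNNB1 itself read 3.23, 3.40 and 4.12 with FZD8_CRD and 3.35, 3.38 and 3.52 with control siRNA. The ranges overlapped, with a difference of 0.16 (SE 0.17, adjusted p = 0.617), while the CTNNB1 siRNA arrays read 0.26, 0.36 and 0.52. The transcription factor partners of CTNNB1 were not called either: LEF1 differed by 0.10 (adjusted p = 0.736) and TCF7 by -0.34 (adjusted p = 0.437; other probe -0.57). Without FZD8_CRD replicate 3, TCF7 differed by -0.78 and was called (adjusted p = 0.00558), as it was with array weights (-0.74, adjusted p = 0.000597). The receptor FZD8 differed by -0.11 (adjusted p = 0.872), and FZD7 by 0.40 (adjusted p = 0.0745). FZD7 was called at 0.57 without FZD8_CRD replicate 3 (adjusted p = 0.00979). It was also called with the deposited values (0.47, adjusted p = 0.0477), normexp (0.34, adjusted p = 0.0342) and array weights (0.59, adjusted p = 0.000351). Of 13 Wnt feedback targets, 3 were called lower and 0 higher, against 8.44% and 7.13% of all genes, with a median of -0.28 (-0.09 without FZD8_CRD replicate 3). The lower count was 5 without FZD8_CRD replicate 2; it was 1 with spike-in scaling, 1 in the 6-array fit and 5 with array weights. Besides RNF43, NKD2, a Dishevelled inhibitor, read 0.86, 0.96 and 0.49 against 1.38, 1.35 and 1.32 and fell by 0.58 (SE 0.13, adjusted p = 0.00412). APCDD1, a membrane inhibitor of Wnt signalling, differed by -1.22 (adjusted p = 0.0241; -0.48 with normexp), and its call ended without control siRNA replicate 1 (-1.16, adjusted p = 0.0838), control siRNA replicate 2 (-1.28, adjusted p = 0.0526), control siRNA replicate 3 (-1.22, adjusted p = 0.0579) or FZD8_CRD replicate 3 (-0.58, adjusted p = 0.101).

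Wnt ligands and secreted inhibitors had 1 of 20 called higher and 2 lower (7.13% and 8.44% of all genes were; 0 higher without control siRNA replicate 2; 2 higher without FZD8_CRD replicate 1; 3 higher without FZD8_CRD replicate 3; 2 higher with replicate blocks; 1 lower without control siRNA replicate 1, 2 or 3 or FZD8_CRD replicate 1 or 2). WNT11, a ligand of the CTNNB1-independent branch, read -1.36, -1.61 and -2.31 against -0.51, -0.52 and -0.44. It fell by 1.27 (SE 0.24, adjusted p = 0.00155) with no overlap and kept its call with any 1 array left out. RSPO1, a ligand that enhances Wnt signalling, differed by 1.58 (adjusted p = 0.0131; 0.39 with normexp), and the call ended without control siRNA replicate 2 (1.45, adjusted p = 0.0567) or FZD8_CRD replicate 2 (1.16, adjusted p = 0.0857). FRZB, a secreted Frizzled-like inhibitor, differed by -0.62 (adjusted p = 0.0347), and its call ended without control siRNA replicate 1 (-0.64, adjusted p = 0.0796), control siRNA replicate 2 (-0.60, adjusted p = 0.0947), control siRNA replicate 3 (-0.61, adjusted p = 0.0801), FZD8_CRD replicate 1 (-0.59, adjusted p = 0.0871) or FZD8_CRD replicate 2 (-0.60, adjusted p = 0.0939). Wnt receptors and core components had 2 of 31 called higher and 1 lower (1 higher without control siRNA replicate 1, 2 or 3 or FZD8_CRD replicate 2; 4 higher without FZD8_CRD replicate 3; 6 higher with replicate blocks; 2 lower without FZD8_CRD replicate 3; 2 lower with replicate blocks). ROR2, a receptor for WNT5A, fell by 0.46 (adjusted p = 0.00218), and AXIN1, a scaffold of the destruction complex, rose by 0.50 (adjusted p = 0.00387).

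Cell division genes leaned towards higher levels with FZD8_CRD. Of 31 mitosis genes, 15 were called higher and 0 lower, against 7.13% of all genes called higher, and the median was 0.54. The count depended on single arrays: it was 5 without control siRNA replicate 1, 6 without control siRNA replicate 2, 5 without FZD8_CRD replicate 1, 4 without FZD8_CRD replicate 2 and 26 without FZD8_CRD replicate 3; it was 0 with spike-in scaling, 7 in the 6-array fit and 29 with array weights. CENPA, the histone of centromeres, read 1.51, 1.66 and 1.24 against 0.63, 0.64 and 0.73. Every FZD8_CRD array was higher, replicate 3 the least, and CENPA rose by 0.80 (SE 0.15, adjusted p = 0.00127). CDK1, the kinase of mitotic entry, read 3.22, 3.41 and 2.88 against 2.40, 2.32 and 2.60 and rose by 0.73 (SE 0.16, adjusted p = 0.00441), but was not called with the mean of its probes (0.62, adjusted p = 0.0628). MAD2L1, of the spindle checkpoint, rose by 0.77 (adjusted p = 0.00457), and AURKB, a kinase of chromosome segregation, by 0.65 (adjusted p = 0.00871). BIRC5, a partner of AURKB, differed by 0.65 (adjusted p = 0.0121), a call that ended without FZD8_CRD replicate 2 (0.57, adjusted p = 0.0598). Against untreated cells the mitosis median was 1.62 with FZD8_CRD and 1.04 with control siRNA. Of 30 DNA replication genes, 5 were called higher and 0 lower, with a median of 0.32, and the count was 3 without control siRNA replicate 1, 2 without control siRNA replicate 2, 3 without control siRNA replicate 3 and 2 without FZD8_CRD replicate 2; it was 0 with spike-in scaling, 9 in the 6-array fit and 12 with array weights. RRM1, a subunit of ribonucleotide reductase, rose by 0.55 (adjusted p = 0.00384), and FEN1, a nuclease of lagging strand synthesis, by 0.65 (adjusted p = 0.0116). Cyclins and CDK inhibitors had 3 of 16 called, all higher (1 higher without control siRNA replicate 1; 7 higher without FZD8_CRD replicate 3; 5 higher with replicate blocks), with a median of 0.13. CDKN2D, an inhibitor of CDK4 and CDK6, rose by 0.51 (adjusted p = 0.00739). CCND1, a cyclin and frequent Wnt target, differed by 0.42 (adjusted p = 0.0336), and its call ended without control siRNA replicate 1 (0.41, adjusted p = 0.1), control siRNA replicate 3 (0.35, adjusted p = 0.126), FZD8_CRD replicate 1 (0.36, adjusted p = 0.116) or FZD8_CRD replicate 2 (0.29, adjusted p = 0.191). Of the p53 targets, 0 of 20 were called with limma (3 higher without FZD8_CRD replicate 3; 3 higher with replicate blocks; 1 lower without control siRNA replicate 3 or FZD8_CRD replicate 1; 2 lower with replicate blocks), while 6 had an unadjusted p under 0.05, as did 6972 of all 24648 genes.

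Heat shock genes encode chaperones. Of 15 tested, 8 were called higher and 0 lower, against 7.13% of all genes called higher, with a median of 0.32. The number called was 11 without FZD8_CRD replicate 3 and 7 without any other of the 6 arrays, and 0 with spike-in scaling. HSPH1, a chaperone that recharges HSP70, read 4.16, 4.25 and 4.06 against 3.50, 3.46 and 3.59. All FZD8_CRD arrays were higher, and HSPH1 rose by 0.64 (SE 0.08, adjusted p = 2.89e-05). HSP90AA1, a form of HSP90, rose by 0.48 (adjusted p = 6.17e-05), and HSPA1A, a stress-induced HSP70, rose by 0.44 (adjusted p = 0.00333). DNAJA1, a helper of HSP70, read 3.98, 4.12 and 3.74 against 3.34, 3.39 and 3.34 and rose by 0.59 (SE 0.08, adjusted p = 9.7e-05). Since members moved together, their promoters were searched for the heat shock element, searched as GAA, TTC and GAA, or TTC, GAA and TTC, with any 2 bases between units, on both strands. It was present in 2 of the 8 called genes with a promoter in the table and in 1 of 6 not called. It was present in 0.487% of all 27305 promoters. Both of the called genes that hold it are shown, from RefSeq on build GRCh38.p14, 250 bases before to 50 after the start, with the element in capitals. DNAJA1 lies at chr9:33025023-33025322 (plus strand) and HSPA8 at chr11:123062087-123062386 (minus strand). A match describes the letters and is not evidence that a factor binds.
DNAJA1: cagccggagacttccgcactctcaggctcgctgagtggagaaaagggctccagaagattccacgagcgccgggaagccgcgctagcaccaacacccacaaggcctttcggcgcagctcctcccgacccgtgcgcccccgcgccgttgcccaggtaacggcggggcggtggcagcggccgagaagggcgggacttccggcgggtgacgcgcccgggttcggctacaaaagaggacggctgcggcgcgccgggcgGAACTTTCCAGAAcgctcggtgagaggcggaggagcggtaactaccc
HSPA8: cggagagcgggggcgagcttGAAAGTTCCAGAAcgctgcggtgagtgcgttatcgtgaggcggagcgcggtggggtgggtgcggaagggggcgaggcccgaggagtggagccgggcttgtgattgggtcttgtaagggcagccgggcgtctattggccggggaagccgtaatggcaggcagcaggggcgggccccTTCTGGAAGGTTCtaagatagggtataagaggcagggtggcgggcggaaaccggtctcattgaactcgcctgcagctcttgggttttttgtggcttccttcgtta

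Of 17 immediate early genes, 7 were called higher (0 with spike-in scaling and 2 in the 6-array fit) and 0 lower, against 7.13% of all genes called higher, with a median of 0.34. ATF3, a stress-induced transcription factor, read 2.32, 2.37 and 2.46 against 1.79, 1.80 and 1.91. The groups did not overlap and ATF3 rose by 0.55 (SE 0.07, adjusted p = 3.52e-05; 4 probes from 0.01 to 0.62). IER3, an early survival gene, rose by 0.90 (adjusted p = 0.00099), and DUSP1, a phosphatase of MAP kinases, rose by 0.37 (adjusted p = 0.00622). JUNB, a subunit of AP-1, read -0.26, -0.40 and 0.60 against -0.77, -0.72 and -1.03, with FZD8_CRD replicate 3 well above the others. It rose by 0.82 (adjusted p = 0.00507), and by 0.51 without that array (adjusted p = 0.0148). MYC, a growth factor target, differed by 0.39 (adjusted p = 0.0152), and its call ended without FZD8_CRD replicate 1 (0.35, adjusted p = 0.0554) or FZD8_CRD replicate 2 (0.33, adjusted p = 0.0782).

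Genes of the unfolded protein and amino acid responses had 2 of 22 called higher and 4 lower, against 7.13% and 8.44% of all genes (0 higher without control siRNA replicate 1 or FZD8_CRD replicate 3; 1 higher without control siRNA replicate 2 or 3 or FZD8_CRD replicate 2). With spike-in scaling 0 were called higher and 0 lower, and in the 6-array fit 1 and 1. DDIT3, the transcription factor CHOP, fell by 0.67 (adjusted p = 0.00388), and by less without FZD8_CRD replicate 3 (-0.44, adjusted p = 0.0134). MTHFD2, of mitochondrial folate metabolism, read -4.05, -4.17 and -4.10 against -3.23, -3.12 and -3.07. It fell by 0.97 (SE 0.22, adjusted p = 0.00606; -0.52 with normexp), and the groups did not overlap. Oxidative stress genes and metallothioneins had 8 of 18 called lower (8.44% of all genes were) and 1 higher (0 higher without control siRNA replicate 1, 2 or 3 or FZD8_CRD replicate 1 or 2; 2 higher without FZD8_CRD replicate 3; 2 higher with replicate blocks), with a median of -0.12 (-0.05 without control siRNA replicate 3; -0.21 without FZD8_CRD replicate 1). The lower count was 5 without control siRNA replicate 1 and 5 without control siRNA replicate 2; it was 1 with spike-in scaling and 3 in the 6-array fit. MT1F, a metallothionein that binds zinc and copper, read 0.54, 0.36 and 0.73 against 1.59, 1.59 and 1.46. FZD8_CRD arrays were all lower, and MT1F fell by 1.01 (SE 0.10, adjusted p = 5.32e-06). MT1E fell by 0.40 (adjusted p = 0.00551). MT1X, another metallothionein, read 6.40, 6.38 and 5.95 against 6.70, 6.66 and 6.52. It fell by 0.39 (adjusted p = 0.00824; other probe -0.64), with a difference of -0.24 without FZD8_CRD replicate 3 (adjusted p = 0.0325). Metallothionein promoters are known for metal response elements, searched as TGCACNC or TGCGCNC on both strands. Each of the 3 promoters of called metallothioneins in the table held it, as did 29.3% of all promoters. A pair that differs in the number of matches is shown, MT1X with 4 matches at chr16:56682220-56682519 (plus strand) and MT1H with 8 at chr16:56669564-56669863 (plus strand). Both come from RefSeq, build GRCh38.p14, with the element in capitals.
MT1X: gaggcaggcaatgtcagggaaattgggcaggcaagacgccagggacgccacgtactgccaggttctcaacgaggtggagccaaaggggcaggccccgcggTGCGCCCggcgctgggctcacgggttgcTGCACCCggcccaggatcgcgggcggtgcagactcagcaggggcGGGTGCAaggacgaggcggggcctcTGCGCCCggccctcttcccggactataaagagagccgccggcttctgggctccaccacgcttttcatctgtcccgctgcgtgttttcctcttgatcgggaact
MT1H: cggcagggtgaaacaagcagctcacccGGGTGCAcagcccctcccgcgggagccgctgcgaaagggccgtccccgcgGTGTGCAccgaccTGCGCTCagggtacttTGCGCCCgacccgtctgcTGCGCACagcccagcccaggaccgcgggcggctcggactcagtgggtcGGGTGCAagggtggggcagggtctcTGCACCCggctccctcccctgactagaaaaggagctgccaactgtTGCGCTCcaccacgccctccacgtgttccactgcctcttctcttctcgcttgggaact

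Interferon-stimulated genes leaned lower with FZD8_CRD. Of 38 tested, 12 were called lower and 0 higher, against 8.44% of all genes called lower, with a median of -0.24. With 1 array left out the number called lower ranged from 8, without control siRNA replicate 1 or 2, to 15, without FZD8_CRD replicate 3. It was 0 with spike-in scaling, 5 in the 6-array fit and 20 with array weights. IRF9, a transcription factor of the interferon response, read -0.16, -0.15 and 0.10 against 0.54, 0.76 and 0.43. All FZD8_CRD arrays were lower, and IRF9 fell by 0.65 (SE 0.10, adjusted p = 0.000238). IFITM1, a membrane protein that blocks virus entry, read -2.74, -2.92 and -2.79 against -2.02, -1.83 and -2.27 and fell by 0.78 (SE 0.12, adjusted p = 0.000406). IFI44L, an interferon-induced gene, read -1.35, -1.40 and -1.35 against -0.90, -0.79 and -1.06 and fell by 0.45 (adjusted p = 0.00099). Neither gene had overlapping groups. IFI6 fell by 0.59 (adjusted p = 0.00109), and MX1, an antiviral GTPase, fell by 0.52 (adjusted p = 0.00198). The interferon response element, searched as TTTC, any 2 bases and TTTC on both strands, was in 7 of 10 promoters of called members and 12 of 18 of members not called. It was in 3.65% of all 27305 promoters. The promoters of IFITM1 at chr11:313790-314089 (plus strand) and IFI44L at chr1:78620198-78620497 (plus strand) are shown because these genes are called and each holds 2 matches, in capitals. They come from RefSeq, build GRCh38.p14.
IFITM1: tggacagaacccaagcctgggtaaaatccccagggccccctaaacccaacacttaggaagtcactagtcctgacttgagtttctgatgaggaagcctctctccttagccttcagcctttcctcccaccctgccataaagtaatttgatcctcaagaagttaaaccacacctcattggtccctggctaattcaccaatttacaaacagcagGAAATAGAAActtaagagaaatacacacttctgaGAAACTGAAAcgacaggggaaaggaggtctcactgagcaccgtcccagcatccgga
IFI44L: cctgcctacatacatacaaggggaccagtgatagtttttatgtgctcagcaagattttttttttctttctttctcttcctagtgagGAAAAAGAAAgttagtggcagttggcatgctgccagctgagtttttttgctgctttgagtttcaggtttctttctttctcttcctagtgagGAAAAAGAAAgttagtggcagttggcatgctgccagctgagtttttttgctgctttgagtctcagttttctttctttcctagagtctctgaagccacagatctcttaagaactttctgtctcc

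RNA sensors had 1 of 10 called higher and 2 lower (7.13% and 8.44% of all genes were; 2 higher without FZD8_CRD replicate 1; 3 higher with replicate blocks; 1 lower without control siRNA replicate 1 or 2 or FZD8_CRD replicate 3). IFIH1, which senses long double-stranded RNA, read 1.05, 0.95 and 0.72 against 1.49, 1.46 and 1.40 and fell by 0.54 (SE 0.11, adjusted p = 0.00258). TICAM1, the adaptor of TLR3, rose by 0.36 (adjusted p = 0.000685; not called with the mean of its probes, 0.24, adjusted p = 0.0995). MHC class I genes had 1 of 16 called, TAPBP, which loads peptides. The number called lower was 4 with quantile normalization, 4 with the deposited values, 3 with array weights and 0 with spike-in scaling. TAPBP differed by -0.28 (adjusted p = 0.0129; 3 probes from -0.46 to -0.28), and its call ended without control siRNA replicate 1 (-0.25, adjusted p = 0.0671). Inflammatory chemokines and cytokines had 1 of 17 called higher and 2 lower (0 higher without control siRNA replicate 1 or FZD8_CRD replicate 3; 1 lower without control siRNA replicate 1 or 2 or FZD8_CRD replicate 1, 2 or 3), with a median of -0.28. CSF1, the growth factor of macrophages, read 1.53, 1.51 and 1.60 against 2.09, 2.13 and 2.05. It fell by 0.54 (SE 0.09, adjusted p = 0.000329; 3 probes from -0.54 to -0.28), with no overlap. ICAM1, an adhesion molecule, differed by -0.34 (adjusted p = 0.0481), and its call ended without control siRNA replicate 1 (-0.34, adjusted p = 0.124), control siRNA replicate 2 (-0.27, adjusted p = 0.191), FZD8_CRD replicate 1 (-0.37, adjusted p = 0.073), FZD8_CRD replicate 2 (-0.32, adjusted p = 0.131) or FZD8_CRD replicate 3 (-0.34, adjusted p = 0.0852).

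In the matrix, other collagens had 6 of 21 called lower (1 with spike-in scaling and 3 in the 6-array fit; 8.44% of all genes were) and 2 higher (1 higher without control siRNA replicate 1 or 3 or FZD8_CRD replicate 2; 4 higher without FZD8_CRD replicate 3), with a median of -0.18 (-0.36 without FZD8_CRD replicate 1; -0.38 without FZD8_CRD replicate 2; -0.03 without FZD8_CRD replicate 3). COL7A1, which anchors epithelium, read 1.20, 1.02 and 0.78 against 2.10, 2.14 and 1.89. Every FZD8_CRD array was lower, and COL7A1 fell by 1.04 (SE 0.12, adjusted p = 2.07e-05). COL6A1, of beaded filaments, fell by 0.80 (adjusted p = 0.000103), and COL18A1, of basement membranes, by 0.49 (adjusted p = 0.00105). COL4A4, also of basement membranes, rose by 0.57 (adjusted p = 0.00189). Fibrillar collagens and their processing enzymes had 6 of 20 called lower and 0 higher, with a median of -0.19 (-0.30 without FZD8_CRD replicate 3), and the count was 2 without control siRNA replicate 2 and 2 without FZD8_CRD replicate 2; it was 0 with spike-in scaling, 2 in the 6-array fit and 10 with array weights. LOXL2, a collagen cross-linking enzyme, read -4.05, -3.96 and -4.12 against -3.20, -3.17 and -3.08 and fell by 0.89 (SE 0.13, adjusted p = 0.000151; -0.48 with normexp). PCOLCE, which helps trim procollagen, fell by 1.01 (adjusted p = 0.00543), with a difference of -0.56 without FZD8_CRD replicate 3 (adjusted p = 0.00296). Matrix proteases and inhibitors had 4 of 23 called higher and 5 lower, against 7.13% and 8.44% of all genes (2 higher without control siRNA replicate 1 or 3). With spike-in scaling 1 was called higher and 3 lower, and in the 6-array fit 1 and 3. MMP2, a gelatinase, read -2.60, -2.78 and -2.28 against -1.37, -1.17 and -1.42, and every FZD8_CRD array was lower. It fell by 1.23 (SE 0.20, adjusted p = 0.000406). MMP7, a known Wnt target, read 3.42, 3.03 and 4.15 against 5.17, 5.55 and 4.69 and fell by 1.60 (adjusted p = 0.000566). The protease median was 0.20 (0.12 without control siRNA replicate 3; -0.01 without FZD8_CRD replicate 3).

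Matrix glycoproteins had 4 of 26 called higher and 4 lower (7.13% and 8.44% of all genes were; 2 higher without control siRNA replicate 1, 2 or 3 or FZD8_CRD replicate 2; 7 lower without FZD8_CRD replicate 3). THBS1, a matrix activator of TGF-beta, read 1.96, 2.21 and 3.00 against 1.10, 1.08 and 0.85, with FZD8_CRD replicate 3 the highest. It rose by 1.38 (SE 0.29, adjusted p = 0.00361). SDC4, a heparan sulfate carrier, fell by 0.67 (adjusted p = 0.00107), and DCN, a collagen-binding proteoglycan, fell by 0.80 (adjusted p = 0.00535). Laminins and integrins had 3 of 25 called higher and 3 lower (1 higher without control siRNA replicate 1 or 3 or FZD8_CRD replicate 3). LAMB1, a laminin chain, read 4.84, 4.70 and 4.68 against 5.25, 5.28 and 5.13. The groups did not overlap, and LAMB1 fell by 0.48 (SE 0.06, adjusted p = 6.53e-05). ITGA6, a laminin receptor chain, rose by 0.67 (adjusted p = 0.00564; other probe 0.07).

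Actin and contractile genes had 8 of 24 called higher and 3 lower, against 7.13% and 8.44% of all genes, with a median of 0.28 (0.10 without FZD8_CRD replicate 3). The higher count was 5 without control siRNA replicate 1 and 5 without control siRNA replicate 3; it was 0 with spike-in scaling and 3 in the 6-array fit. TPM1, a tropomyosin, read 4.54, 4.64 and 5.41 against 3.94, 4.04 and 3.83, with FZD8_CRD replicate 3 the highest. It rose by 0.93 (SE 0.17, adjusted p = 0.00103). MYLK, the kinase of myosin light chain, fell by 0.46 (adjusted p = 0.00044; 3 probes from -0.71 to -0.37). CNN1, a calponin of smooth muscle, read 1.96, 2.13 and 2.11 against 0.38, 0.44 and 0.48. These groups were tight and far apart, and untreated arrays read lower than both, at -1.77, -1.91 and -2.32. The difference of 1.63 (SE 0.49, adjusted p = 0.0291) used the spread over all 8 conditions, and its call ended without control siRNA replicate 1 (1.61, adjusted p = 0.0844), control siRNA replicate 2 (1.64, adjusted p = 0.0739), control siRNA replicate 3 (1.66, adjusted p = 0.0624), FZD8_CRD replicate 1 (1.69, adjusted p = 0.0537), FZD8_CRD replicate 2 (1.60, adjusted p = 0.0772) or FZD8_CRD replicate 3 (1.61, adjusted p = 0.0599). The CNN1 call stayed in the 6-array fit, which uses the spread of these groups alone. It ended with spike-in scaling (1.53, adjusted p = 0.141) and with no filter (adjusted p = 0.0768). YAP targets had 3 of 14 called higher and 1 lower (2 lower without FZD8_CRD replicate 3), with a median of 0.14 (0.24 without FZD8_CRD replicate 3). ANKRD1, a muscle and YAP target gene, read 1.71, 1.75 and 1.31 against 0.41, 0.42 and 0.35 and rose by 1.20 (SE 0.18, adjusted p = 0.000215). ARHGEF17, an exchange factor for small GTPases, fell by 0.54 (adjusted p = 0.000515).

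TGF-beta and BMP genes had 3 of 21 called higher and 1 lower (7.13% and 8.44% of all genes were; 5 higher without FZD8_CRD replicate 3; 0 lower without control siRNA replicate 1, 2 or 3; 2 lower without FZD8_CRD replicate 3), with a median of 0.20 (0.10 without FZD8_CRD replicate 3). With spike-in scaling 0 were called higher and 0 lower, and with array weights 8 and 4. ID3, an inhibitor of helix-loop-helix factors and a BMP target, read 4.10, 4.19 and 3.66 against 2.92, 2.75 and 2.92. All FZD8_CRD arrays were higher, and ID3 rose by 1.12 (SE 0.12, adjusted p = 8.02e-06). ID1, a close relative, read 5.65, 5.71 and 5.15 against 4.68, 4.61 and 4.81 and rose by 0.80 (SE 0.12, adjusted p = 0.000257). PMEPA1, which restrains TGF-beta signalling, rose by 1.07 (adjusted p = 0.00091), and by 0.70 without FZD8_CRD replicate 3 (adjusted p = 0.000415). SMAD6, an inhibitor of BMP signalling, differed by -0.38 (adjusted p = 0.0313), and its call ended without control siRNA replicate 1 (-0.37, adjusted p = 0.0948), control siRNA replicate 2 (-0.42, adjusted p = 0.0528), control siRNA replicate 3 (-0.36, adjusted p = 0.0894) or FZD8_CRD replicate 3 (-0.23, adjusted p = 0.156). EGF and IGF genes had 4 of 27 called higher and 3 lower (1 higher without FZD8_CRD replicate 2; 2 higher without control siRNA replicate 1, 2 or 3). IGFBP3, a carrier of IGF, read 1.75, 1.84 and 2.15 against 0.98, 0.98 and 0.95 and rose by 0.94 (adjusted p = 0.000273). INSR, the insulin receptor, fell by 0.66 (adjusted p = 0.00099). Hypoxia and glycolysis genes had 2 of 26 called higher and 4 lower (1 higher without control siRNA replicate 1, 2 or 3; 2 lower without control siRNA replicate 1 or 2). HK2, a hexokinase, read -3.20, -3.19 and -3.28 against -2.13, -2.20 and -1.86. It fell by 1.16 (SE 0.14, adjusted p = 4.33e-05; -0.71 with normexp), with no overlap, and PKM, a pyruvate kinase, fell by 0.39 (adjusted p = 0.0016). LDHB, of the same list, was called higher and rose by 1.24 (other probe 1.53), but was not called with spike-in scaling (1.13, adjusted p = 0.152).

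Biliary and progenitor genes had 2 of 14 called higher and 1 lower, against 7.13% and 8.44% of all genes. CD44, a hyaluronan receptor and progenitor marker, read 4.36, 4.40 and 4.44 against 3.40, 3.49 and 3.30. The groups were tight and did not overlap, and CD44 rose by 1.00 (SE 0.07, adjusted p = 2.61e-07). A dimmer probe for CD44 differed by 0.03, so the rise rests on 1 of its 2 probes. SOX4, a factor of progenitors, read -0.76, -0.71 and -0.47 against -1.53, -1.37 and -1.61 and rose by 0.85 (adjusted p = 0.000103). MUC1, a mucin of bile ducts, read 0.11, -0.03 and 0.06 against 1.07, 0.97 and 0.98 and fell by 0.96 (SE 0.11, adjusted p = 1.32e-05; other probe -0.29). Each of these 3 genes kept its call with any 1 array left out. Epithelial junction genes had 3 of 22 called higher and 1 lower (0 lower without control siRNA replicate 1 or 3 or FZD8_CRD replicate 1 or 2; 2 lower with replicate blocks). F11R, a junction adhesion molecule, rose by 0.39 (adjusted p = 0.0058; not called with the mean of its probes, 0.25, adjusted p = 0.089). CDH2, a cadherin, differed by 0.29 (adjusted p = 0.0361; other probe 0.12), and its call ended without control siRNA replicate 1 (0.30, adjusted p = 0.0827), control siRNA replicate 2 (0.30, adjusted p = 0.0815), control siRNA replicate 3 (0.28, adjusted p = 0.097) or FZD8_CRD replicate 3 (0.18, adjusted p = 0.173). Mesenchymal genes had 1 of 15 called higher and 5 lower (0 higher without control siRNA replicate 2 or 3 or FZD8_CRD replicate 2; 3 lower without control siRNA replicate 1 or 3 or FZD8_CRD replicate 2), with a median of -0.12 (-0.28 without control siRNA replicate 2; -0.33 without control siRNA replicate 3; 0.10 without FZD8_CRD replicate 2; -0.20 without FZD8_CRD replicate 3; 0.04 with the deposited values). PDGFRA, a growth factor receptor of mesenchyme, was at the lowest level on all 3 FZD8_CRD arrays and read -5.01, -5.10 and -5.05 with control siRNA. At the lowest level used, that is at least 2.10-fold lower (adjusted p = 0.00266), with a log2 difference of -0.31 with normexp. The size of the PDGFRA fall thus depends on that level and on background correction.

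Lists for other cell types were small and mixed, and their part in the differences was not tested. Of 12 endothelial markers on the array, 4 were above background on all 6 arrays and CLDN5, ERG, LYVE1 and TIE1 on none. Their summed level, in multiples of the 75th percentile, was 2.01, 1.80 and 1.09 with FZD8_CRD and 3.32, 3.45 and 3.04 with control siRNA. KDR, a VEGF receptor, was the most abundant and the only endothelial gene called of 5 tested, and it fell by 1.25 (SE 0.21, adjusted p = 0.000583). Its call ended in the 6-array fit (adjusted p = 0.063). Of all genes, 8.44% were called lower and 7.13% higher. Of 14 leukocyte markers, 11 were above background on all 6 arrays and the B cell marker MS4A1 on none. The summed level was 7.06, 6.31 and 8.08 with FZD8_CRD and 9.74, 9.65 and 9.65 with control siRNA. Control siRNA was thus higher on every array, and 1 of 12 tested was called (0 lower without control siRNA replicate 1, 2 or 3 or FZD8_CRD replicate 1 or 2; 4 lower without FZD8_CRD replicate 3; 2 lower with replicate blocks), with a median of -0.31 (-0.13 without FZD8_CRD replicate 2). CD79A, the most abundant, differed by -0.54 (adjusted p = 0.0741), and it was called without FZD8_CRD replicate 3 (-0.67, adjusted p = 0.0423), with replicate blocks (adjusted p = 0.00111) and with array weights (adjusted p = 0.00478). CD68, a macrophage lysosome protein, was the called gene at -0.77 (adjusted p = 0.0325). Its difference was -1.21 without FZD8_CRD replicate 3 (adjusted p = 5.17e-05), and the call ended without control siRNA replicate 1 (-0.78, adjusted p = 0.0835), control siRNA replicate 2 (-0.74, adjusted p = 0.0939), control siRNA replicate 3 (-0.80, adjusted p = 0.0632), FZD8_CRD replicate 1 (-0.56, adjusted p = 0.153) or FZD8_CRD replicate 2 (-0.55, adjusted p = 0.176).

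Stellate and fibroblast markers summed to 47.0, 45.5 and 60.3 with FZD8_CRD and 53.6, 62.0 and 44.4 with control siRNA. These sums overlapped, DCN was the most abundant, and GFAP and RELN were above background on none of the 6 arrays. Of 13 tested, 1 was called higher and 4 lower (7.13% and 8.44% of all genes were; 0 higher without control siRNA replicate 1 or 3 or FZD8_CRD replicate 3; 2 higher with replicate blocks; 1 lower without FZD8_CRD replicate 2; 2 lower without control siRNA replicate 1 or FZD8_CRD replicate 3). Squamous markers summed to 87.1, 94.4 and 120 with FZD8_CRD and 73.5, 71.3 and 72.8 with control siRNA. SFN, a 14-3-3 protein of epithelia, was the most abundant, and DSG3, KRT1 and TP63 were above background on none. SFN was the only squamous marker called of 6 tested, and it rose by 0.81 (SE 0.19, adjusted p = 0.00667).

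The same 2 groups were also measured with Wnt3a (200 ng/ml) on 6 other arrays that share none with the comparison above. These lay on the same slides and in the same columns (row 2, column 4 for FZD8_CRD and row 2, column 2 for control siRNA). Control siRNA cells were again the transfected ones. Place, transfection and FZD8_CRD thus cannot be told apart here either, and agreement between the comparisons does not separate them. There, 4627 genes were called (18.8%), with 2111 higher (8.56%) and 2516 lower (10.2%), or 121 and 1854 with spike-in scaling. Without control siRNA with Wnt3a replicate 1 the number called was 2751, and without FZD8_CRD with Wnt3a replicate 2 it was 3074. Of the 1757 genes higher without Wnt3a, 1075 were also called higher with it, 61.2% of the first list and 50.9% of the second. Of the 2080 lower genes, 1424 were also called lower, 68.5% and 56.6% of the lists. No gene was called in opposite directions. The sign was the same for 97.9% of the higher and 97.7% of the lower genes, against 78% of all genes tested. The median difference went from 0.42 to 0.33 for the higher genes and from -0.59 to -0.50 for the lower ones. The plot of differences with and without Wnt3a shows both sets.

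**Figure D4:**
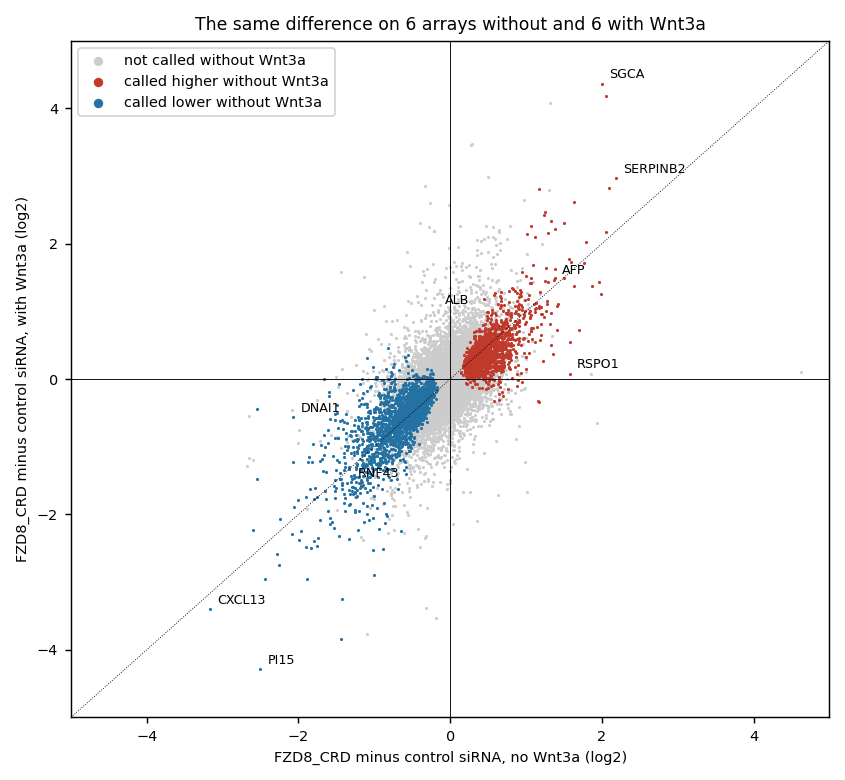
Log2 difference (FZD8_CRD minus control siRNA) of each gene tested, without Wnt3a against with Wnt3a, with genes called without Wnt3a in colour. Of those called higher, 97.9% had the same sign with Wnt3a, as did 97.7% of those called lower.

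CXCL13 differed by -3.40 with Wnt3a (adjusted p = 4.92e-07) and RNF43 by -1.52 (adjusted p = 8.34e-08). AFP and CD44, whose groups lay apart without Wnt3a, were called with it too: AFP differed by 1.47 (adjusted p = 4.07e-06) and CD44 by 0.84 (adjusted p = 7.43e-07). AXIN2, not called without Wnt3a, differed by -0.72 with it (adjusted p = 8.97e-05). ALB differed by 1.02 with Wnt3a (adjusted p = 0.0254). The median of the plasma carriers was 0.89 with Wnt3a and -0.30 without it (0.08 without FZD8_CRD replicate 2; -1.10 without FZD8_CRD replicate 3). The mitosis median was 0.14 with Wnt3a (0.07 without control siRNA with Wnt3a replicate 1; 0.09 without FZD8_CRD with Wnt3a replicate 1) and 0.54 without, and 1 mitosis gene was called with Wnt3a. A test of the difference between the comparisons called 3 genes in all (0.0122%), with 1285 at an unadjusted p under 0.05, and none of the genes in this paragraph was among them. That test called 949 genes without FZD8_CRD replicate 3 and 0 without any other of the 6 arrays, and 0 to 4 without 1 of the Wnt3a arrays. For AXIN2 the difference between the comparisons was -0.46 (adjusted p = 0.716), and for ALB it was 1.18 (adjusted p = 0.801). The plot of list medians gives the 45 lists with and without Wnt3a.

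**Figure D5:**
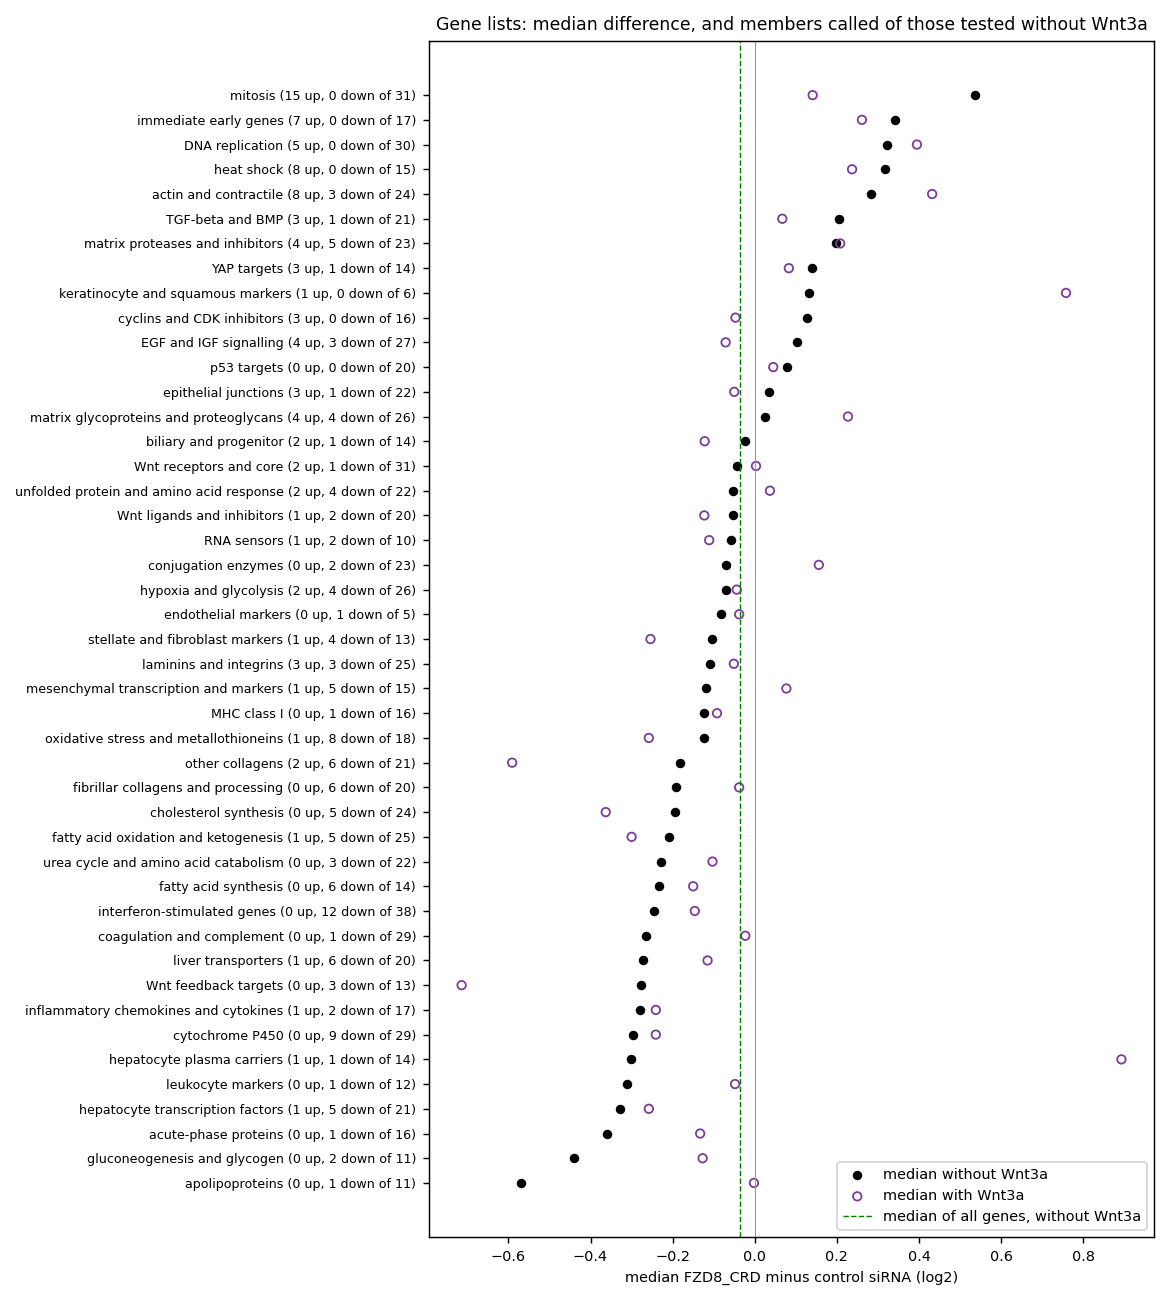
Median log2 difference (FZD8_CRD minus control siRNA) of each of 45 gene lists, without and with Wnt3a. Mitosis lies at 0.54 without and 0.14 with Wnt3a, and plasma carriers at -0.30 and 0.89.

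Arrays with CTNNB1 siRNA give a further reference, chosen after the values were seen. CTNNB1 siRNA with Wnt3a minus control siRNA with Wnt3a uses none of the 6 arrays compared. Its difference had the same sign for 60.5% of the 1757 higher genes (median 0.05) and 62.3% of the 2080 lower genes (median -0.08), against 55% of all genes. The shares were thus a little above that of all genes, and the medians lay close to 0. Without Wnt3a, CTNNB1 siRNA arrays read 1.75, 1.16 and 1.02 for CXCL13, between the FZD8_CRD and control siRNA arrays. For PI15 all 3 CTNNB1 siRNA arrays were at the lowest level, as were the FZD8_CRD arrays. For ID3 they read 3.68, 3.77 and 3.65, nearer to the FZD8_CRD arrays.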

How the data were processed

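Intensity values were read from the deposited scanner files: per the file headers, Agilent Feature Extraction (version 10.7.1.1, where the submitters' processing notes give 10.7.3.1) subtracted background and detrended each array, with no scaling between arrays. The authors also deposited log2 values relative to the 75th percentile, which the values show to be centred on each probe's median. These correlated with the scanner values at 0.926 to 0.992 per array after centring and served as an alternative.

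Spots marked as outliers were left out, probes spotted more than once (986) were averaged, and values were divided by the 75th percentile of the array and taken as log2. Values below -6.127 (1.431% of that percentile) were set to it. Of 50683 probes, 31067 passed the filter (a condition in which each of the 3 arrays read well above background), and RefSeq transcripts named 28174 probes (20503 symbols). Each symbol was read from its brightest kept probe on average, and probes without a symbol stood for themselves, giving 24648 genes (16001 with a symbol).

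Differences were tested with limma 3.58.1 (R 4.3.3; lmFit, contrasts.fit, eBayes with trend) on all 24 arrays with a mean for each of 8 conditions, two-sided, with Benjamini-Hochberg adjustment over all genes. Figures used Python 3.11.15 and matplotlib 3.10.9. The pipeline was tested on simulated data.

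Named genes were the 15 largest rises and falls among called genes with a symbol that changed alike in 3 of 3 same-slide pairs and were above background on every array of a group, the 10 genes CTNNB1, AXIN2, RNF43, ZNRF3, NKD1, LEF1, TCF7, FZD8, FZD7 and ALB, and up to 5 called members of each of 45 lists by smallest p, or the member with the highest signal where fewer than 2 were called. Members and lists were chosen with earlier results of these data known. Not every gene that met the rule is printed. Genes named outside this rule were chosen after their values were seen.

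After group means were removed, same-numbered FZD8_CRD and control siRNA arrays correlated across genes at 0.40, 0.40 and 0.32. Differently numbered ones had a mean of -0.19. That mean largely follows from the same-numbered values, since deviations within a group cancel once its mean is removed, and is not a separate reference. The replicate number, which is also the slide, was therefore tried as a block. Other alternatives were quantile normalization, the deposited values, normexp background correction (on median signal, since no mean signal is given), spike-in scaling, other filters, another floor, the mean of probes, outlier spots kept, only the groups compared, array weights, the thresholds in the methods and each array or replicate number left out. Leaving arrays out of the spike-in difference and of list medians in other comparisons was added after the data were seen. Promoters came from RefSeq.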

Additional observations from a re-analysis of the deposited data

Results flagged for a closer look

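The comparison of FZD8_CRD with control siRNA was tested for a difference between arrays with and without Wnt3a, and 3 genes passed. That count depended on the arrays and the processing: 0 were called without control siRNA replicate 1, 2 or 3 or FZD8_CRD replicate 1 or 2, with normexp, the deposited values, spike-in scaling or only the groups compared, and 949 without FZD8_CRD replicate 3. With the filter on all 6 arrays, 0 were called as well. ENST00000416349, a transcript with no RefSeq symbol, was among the 3 and differed by 1.848 more with Wnt3a. This transcript was at the lowest level used on all control siRNA arrays with and without Wnt3a and on FZD8_CRD replicates 1 and 2. It read -4.15, -3.93 and -4.44 with FZD8_CRD and Wnt3a, and passed the filter through that group. Its difference is thus set by the lowest level, and nothing is concluded from its size or test. ENST00000531363, also without a symbol, differed by 1.533 more and read -4.54, -4.03 and -4.39 with FZD8_CRD and Wnt3a. It was at or near the lowest level on the other arrays of this test, so its difference is likewise set by that level. NALCN, a sodium leak channel, differed by -1.833 (95% interval -2.439 to -1.227, adjusted p = 0.0481). It read -3.76, -3.42 and -4.26 with FZD8_CRD and -4.00, -3.97 and -3.97 with control siRNA, and -6.13, -6.13 and -6.08 against -4.67, -4.37 and -4.31 when Wnt3a was added. All 3 genes were thus near the lowest level in at least 1 of these groups, so the sizes of all 3 differences depend on that level. How their levels come about was not tested.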

How the results depend on the processing

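No result changed direction while called. For FZD8_CRD against control siRNA without Wnt3a, quantile normalization, the deposited values, normexp correction, other filters, another floor, the mean of probes and outlier spots kept left both counts within 1.5 times of 1757 higher and 2080 lower. Spike-in scaling gave 20 higher and 235 lower, and it gave 1975 called with Wnt3a (121 higher), 7381 for FZD8_CRD (553 higher) and 1641 for control siRNA (123 higher) against untreated, and 0 for the difference with Wnt3a. Fitting only the groups compared gave 767 higher and 981 lower, 5122 with Wnt3a, 6317 and 3650 called for FZD8_CRD and control siRNA against untreated, and 0 for the difference. With the replicate number as a block (paired by slide) there were 2814 higher and 3277 lower, and all main calls were kept. Array weights gave 4057 and 4323, with 6942 called with Wnt3a, 9149 for control siRNA against untreated and 2060 for the difference. FZD8_CRD replicate 3 had a weight of 0.177, against 1.56 and 1.42 for replicates 1 and 2. The thresholds in the methods (unadjusted p under 0.01 with a fold over 1.5 or under 0.7) gave 444 higher and 1305 lower, 2346 with Wnt3a, 5525 and 2681 against untreated and 229 for the difference. The difference had 12 genes with no filter and 0 with the deposited values, normexp correction or the filter on all 6 arrays. The cause of these changes was not tested.

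With arrays or a replicate number left out, genes called higher ranged from 167 to 2334 and genes called lower from 342 to 2495. The range was 766 to 5248 with Wnt3a, 6192 to 11187 for FZD8_CRD against untreated, 267 to 6774 for control siRNA against untreated and 0 to 949 for the difference.

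Of 200 named genes, 185 were called, and 26 stayed past the threshold under every alternative run, among them CXCL13, RNF43, AFP, S100A8, MUC1, COL7A1, MMP2 and HK2. Spike-in scaling ended the call of 140, only the groups compared of 69, the methods' thresholds of 56, no filter of 29, normexp of 22, the mean of probes of 11, quantile normalization of 9, the deposited values and the floor of 5 each, and the filter on all 6 arrays of 1. The block ended the call of 0 of them. Of 45 list medians, 13 changed sign under some alternative other than leaving arrays out. Signal over background limits genes near -6.13, whose differences depend on the floor and on background correction, and 3 arrays a group limit small differences.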
